A study of Mus musculus with 6 samples.

Results

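The genes described here are 32 transcripts that mark fibroblasts and pericytes, collagens left out. They were taken by symbol from a table of 35275 genes, and each symbol matched 1 row. Fibroblasts build the connective tissue of an organ, and pericytes wrap capillaries. Both carry receptors for platelet-derived growth factor, PDGFRα mainly on fibroblasts and PDGFRβ on both. In a tumour, fibroblasts activated by growth factors such as TGFβ secrete proteoglycans, microfibril proteins and matricellular proteins, and many switch on the smooth-muscle contractile genes that pericytes and vascular muscle use. In the mammary gland those contractile genes are also a feature of myoepithelial cells. Macrophages, the cells that were sorted, are a different lineage, and most of these genes are not macrophage genes.

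The genes fell into 5 roles. Surface receptors and antigens were Pdgfra, Pdgfrb, Thy1, Fap and Cspg4. Contractile and mural-cell genes were Acta2, Tagln, Myh11, Cnn1, Myl9, Mylk, Des, Tpm2 and Rgs5. Small leucine-rich proteoglycans and a partner were Dcn, Lum, Bgn and Dpt. Microfibril and elastic-fibre genes were Fbn1, Fbln1, Fbln2, Mfap4, Mfap5, Lox and Loxl1. The remaining secreted proteins were Sparc, Postn, Pcolce, Serpinf1, Igfbp4, Igfbp5 and Mmp3.

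Contractile genes are controlled in muscle by serum response factor, which binds the CArG box, a short element of CC, an A/T-rich core and GG. The promoters of a pair of contractile genes are shown because this element could be located in them; Acta2 did not overlap between the groups and Myl9 did. Each sequence is the 250 bases before the RefSeq gene start, read 5′ to 3′ on the gene's own strand (RefSeq, GRCm38.p6). Acta2 lies at chr19:34255374-34255623 on the minus strand and Myl9 at chr2:156775214-156775463 on the plus strand. Capitals mark matches to the CArG box, complete or with 1 base of the core changed to C or G; the pattern is the same on both strands, and the matches do not overlap.
Acta2: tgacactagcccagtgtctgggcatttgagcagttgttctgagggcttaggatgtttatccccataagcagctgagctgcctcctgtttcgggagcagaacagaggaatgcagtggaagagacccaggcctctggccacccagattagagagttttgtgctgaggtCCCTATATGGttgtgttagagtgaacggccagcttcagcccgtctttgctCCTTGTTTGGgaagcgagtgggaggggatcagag
Myl9: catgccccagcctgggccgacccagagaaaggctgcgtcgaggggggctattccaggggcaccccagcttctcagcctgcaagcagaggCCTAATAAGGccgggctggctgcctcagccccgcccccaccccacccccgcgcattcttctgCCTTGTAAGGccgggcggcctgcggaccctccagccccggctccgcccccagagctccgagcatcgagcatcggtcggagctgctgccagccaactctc

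In Acta2 both matches, beginning 84 and 34 bases upstream, had 1 changed base. Myl9 held a complete box 161 bases upstream and a changed one at 99. RefSeq promoters were matched for 21 of the 32 genes, and 4 of these (Acta2, Myl9, Fbln2 and Serpinf1) held a complete or changed box. Among all 32851 promoters of the same length, 1.47% held a complete box and 8.59% either form. A match is a description of the sequence and not a binding site.

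RNA sequencing was done on 6 libraries, each from the tumours of 1 female MMTV-PyMT mouse, FVB/NJ in background and 65 days old, a model in which polyoma middle T is expressed from a mammary tumour virus promoter. Cells were sorted as CD11b+ F4/80+ Ly6G- Ly6C- tumour-associated macrophages. All mice were Atg5flox/flox. The 3 labelled Atg5 KO also carried LysMcre, which expresses Cre recombinase from the lysozyme 2 locus in myeloid cells, and the 3 labelled Atg5 WT did not; the groups are called KO-labelled and WT-labelled here. Nothing in that design targets fibroblasts or pericytes, and the comparison asks which transcripts of the sorted preparation differ with the genotype. Values are FPKM, which scales reads by gene length and library size, so levels can be set side by side between genes.

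Reads recovered from the FPKM ranged from 18770262 to 21173301 per library. Atg5, summed over the whole gene, had FPKM of 5.15, 5.11 and 5.28 in WT-labelled replicates 1 to 3 and 14.0, 16.6 and 17.4 in the KO-labelled ones, which goes against the label, though a loss of single exons cannot be read from such a sum. Lyz2, where the Cre sits, had 4707, 2060 and 6571 against 8.43, 11.8 and 16.1, which goes with it. Antigens of the sort were present, with Adgre1 (F4/80) at 49.97 to 258 and Itgam (CD11b) at 53.9 to 177. Ly6g was at 0 in 4 libraries and at most 0.308. With Ly6c1 and Ly6c2 (Ly6C) added, the 5 antigens summed to 150 in Atg5 WT replicate 2. Adgre1, Itgam and Ly6g do not make up that sum, so Ly6C transcripts were present there although the sort was Ly6C-. The mean log2(FPKM + 1) of the 5 antigens was 3.54 in Atg5 WT replicate 2 and 3.80 to 4.22 in the other libraries. The highest values of Adgre1, Itgam and Ly6g are too low to give such means, so Ly6C transcripts were not particular to that library. Atg5 WT replicate 2 stood apart: its Adgre1 and Itgam were the lowest, and the first principal component, with 75.0% of the variance, placed it farthest out. Results are therefore given with and without it.

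All 32 fibroblast and pericyte genes had a lower mean log2(FPKM + 1) in the KO-labelled libraries. Over all rows with a read 66.2% did so, and 62.8% of genes at a mean FPKM of 1 or more. The median difference, KO-labelled minus WT-labelled, was -1.39 on the log2 scale for the 32 genes and -0.04 for all 23759 rows with a read. Without Atg5 WT replicate 2 the median of the 32 was -0.82. For 19 of the 32 genes every KO-labelled library lay below every WT-labelled one, and for 0 the reverse held. The background for such separation in the lower direction was 9.09% of rows with a read and 9.41% of genes at a mean FPKM of 1 or more, and 9.2% of the latter in the higher direction. Without Atg5 WT replicate 2 the count was 20 of 32, against 12.7% of rows. In bulk RNA, fewer cells of a type and less RNA per cell cannot be told apart.

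No single gene of the 32 passed the test. limma-trend on log2(FPKM + 1) was run over 12332 genes at a mean FPKM of 1 or more, and 0.00811% of them were called lower at an adjusted p under 0.05, which is Lyz2 alone, and 0% higher. Of the 32, 29 entered the test and 3 were below the level filter: Myh11 (mean FPKM 0.553), Des (0.366) and Cnn1 (0.157). The nearest gene above the filter was Mylk, at 1.27. Pdgfra and Mylk passed it while their means in the KO-labelled libraries were under 1, so they entered through the other group. Adjusted p over all genes ran from 0.492 to 0.597 for the 29, and limma-voom on the recovered reads also called 0. At an unadjusted p under 0.05 there were 20 of 29, where 5.17% of all tested genes were lower at that level. That count moved when a library was left out. It was 4 without Atg5 KO replicate 3, 11 without Atg5 WT replicate 1 and likewise without Atg5 KO replicate 2. It was 14 without Atg5 KO replicate 1, 15 without Atg5 WT replicate 2 and 26 without Atg5 WT replicate 3. The background moved too: 638 of all tested genes were lower at that level in the main fit. For the same omissions in the same order, the background was 138, 184, 616, 406, 484 and 2812 genes. Each omission also removes a mouse from the test, so these counts cannot show that the result depends on a given library. With the epithelial score as a covariate, 13 of the 29 were under 0.05, with a background of 526 genes.

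**Figure D1:**
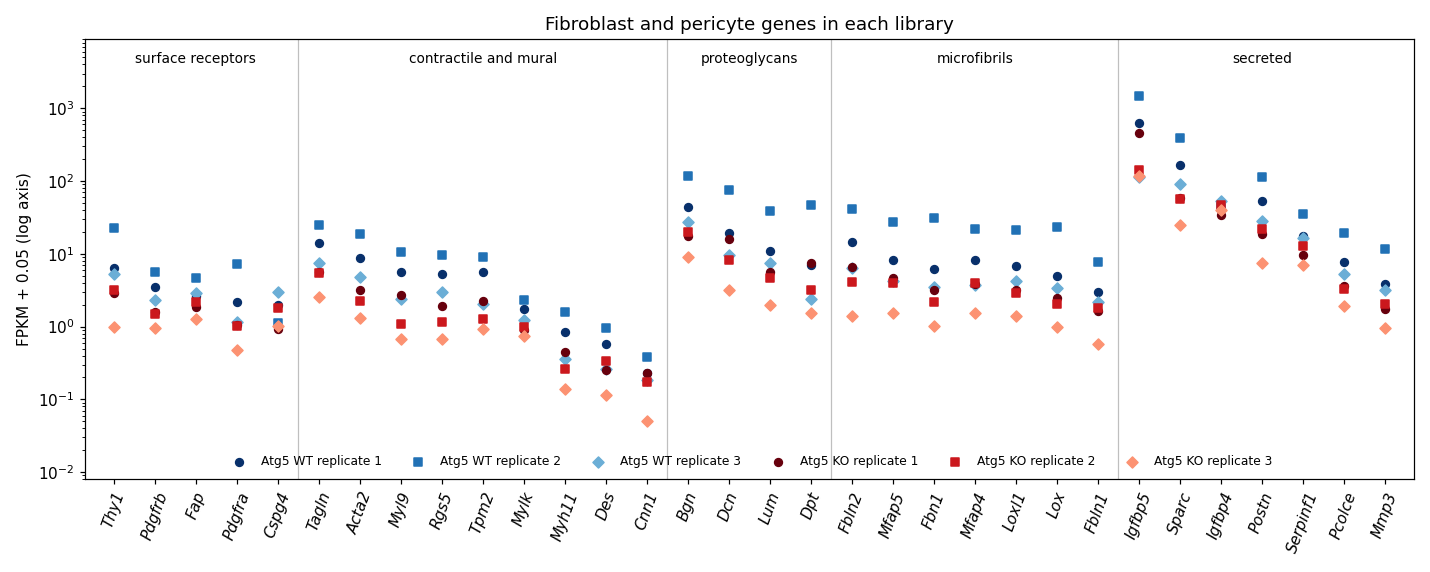
FPKM + 0.05 of the 32 genes on a log axis, 1 point per library, in 5 groups by role; blue symbols are the WT-labelled libraries and red symbols the KO-labelled ones. Atg5 WT replicate 2 is the highest point for 30 genes and Atg5 KO replicate 3 the lowest for 29.

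The libraries kept nearly the same order from gene to gene. Atg5 WT replicate 2 was the highest library for 30 of the 32 genes, against 47.7% of all rows with a read and 54.1% of genes at a mean FPKM of 1 or more. Atg5 KO replicate 3 was the lowest for 29 of 32, against 26.8% of genes at a mean FPKM of 1 or more. Atg5 WT replicate 1 came directly after replicate 2 for 27 genes. In the middle of the order, Atg5 KO replicate 1 was above Atg5 WT replicate 3 for 10 genes, and for 19 the values of these 2 libraries were within 1.5-fold of each other. The values thus ran as a gradient over the 6 libraries, with those of the middle close together.

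Among the surface receptors and antigens, Thy1 was the most abundant. Thy1 encodes a glycoprotein of fibroblasts, which T cells carry too. Its FPKM was 6.38, 22.3 and 5.19 in WT-labelled replicates 1 to 3 and 2.89, 3.09 and 0.927 in the KO-labelled ones. The groups did not overlap, and WT-labelled replicate 2 was 3.86 times the mean of its group's other members. The difference was -1.71 with an SE of 0.58, and -1.11 without that replicate. The T cell genes Cd3d, Cd3e, Cd3g and Lck summed to 2.22 to 4.59 and 0.803 to 2.31 in the WT-labelled and KO-labelled groups, and their part in the Thy1 values was not tested.

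Pdgfrb, the receptor that pericytes need, ranged from 2.25 to 5.67 in the WT-labelled libraries and from 0.908 to 1.52 in the others. Pdgfra, its fibroblast counterpart, ranged from 1.09 to 7.20 and from 0.421 to 1.01. Fap, a serine protease of activated fibroblasts, ranged from 2.60 to 4.55 and from 1.21 to 2.14. The groups did not overlap for these genes, although for Pdgfra the gap between 1.09 and 1.01 was narrow. Cspg4, which encodes the NG2 proteoglycan of pericytes, behaved differently. It had 1.93, 1.06 and 2.90 in WT-labelled replicates 1 to 3 against 0.892, 1.74 and 0.973. Its groups overlapped, and replicate 2, where nearly every other gene peaked, had its lowest value in that group. The Cspg4 difference was -0.40 with an SE of 0.29, and -0.64 without replicate 2.

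Contractile genes were led by Tagln and Acta2. Tagln (transgelin, an actin-binding protein; chromosome 9, 45929628 to 45936058, mm10) had FPKM of 13.9, 24.9 and 7.46 in the WT-labelled libraries and 5.63, 5.41 and 2.502 in the KO-labelled ones. Acta2 (smooth-muscle actin; chromosome 19, 34241090 to 34255336) had 8.63, 18.8 and 4.76 against 3.16, 2.19 and 1.27. For both the groups did not overlap. Means stood at 15.4 ± 8.80 against 4.51 ± 1.75 for Tagln and 10.7 ± 7.26 against 2.21 ± 0.943 for Acta2 (SD, n = 3 each). On the log2 scale Tagln differed by -1.48 (SE 0.47) and Acta2 by -1.73 (SE 0.49), and without Atg5 WT replicate 2 by -1.08 and -1.26. Of all 50-base words of the annotated Tagln transcripts, 58.3% also occur in a transcript of another gene, mostly Gm48529. No gene of that symbol is among the 35275 with FPKM values, so no reads were listed under it. How reads from the shared words were assigned is not known. For Acta2 the share was 0.326%.

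Rgs5, a regulator of G-protein signalling used as a pericyte marker, ranged from 2.94 to 9.55 in the WT-labelled libraries and from 0.625 to 1.89 in the others, without overlap. It had the smallest p of the contractile and mural group (limma-trend adjusted p = 0.492, difference -1.57, SE 0.41). Myl9, the regulatory myosin light chain whose promoter is printed above, had 2.36 to 10.6 against 0.623 to 2.68. Tpm2, a tropomyosin, had 2.01 to 8.98 against 0.878 to 2.19. Both overlapped through Atg5 KO replicate 1, which lay above Atg5 WT replicate 3. Mylk, the kinase that phosphorylates that light chain, ranged from 1.18 to 2.26 and from 0.693 to 0.931, and did not overlap.

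The markers of mature smooth muscle were scarce. Smooth-muscle myosin Myh11 had 100, 195 and 39 recovered reads in the WT-labelled libraries and 55, 29 and 12 in the others. Desmin (Des) had 30, 53 and 12 against 13, 18 and 4. Calponin (Cnn1) had 8, 15 and 6 against 9, 6 and 0 reads, and its single 0 allows up to 3 reads by counting error alone. All 3 genes overlapped between the groups and were too low for the test. Set per length, the mean FPKM of Acta2 over the 6 libraries was 6.47, whereas Myh11 was 0.553 and Cnn1 0.157.

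Proteoglycans were among the most abundant of the 32. Biglycan (Bgn; chromosome X, 73483602 to 73495933), which binds collagen and TGFβ, had FPKM of 43.8, 116 and 27.4 in the WT-labelled libraries and 17.3, 20.2 and 8.97 in the KO-labelled ones. Lumican (Lum), which orders collagen fibrils, had 11.0, 39.1 and 7.42 against 5.64, 4.67 and 1.91. Neither overlapped, and the differences were -1.76 (SE 0.57) and -1.73 (SE 0.64). Decorin (Dcn; chromosome 10, 97479500 to 97518162), the proteoglycan that decorates fibrils, had 19.4, 75.3 and 9.55 against 15.8, 8.21 and 3.12. Dermatopontin (Dpt), a decorin partner, had 6.99, 47.2 and 2.34 against 7.36, 3.10 and 1.505. In both, Atg5 KO replicate 1 lay above Atg5 WT replicate 3, and in Dpt it lay above replicate 1 as well.

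Dpt and Dcn rested on 1 library more than the rest of this group. Dpt in Atg5 WT replicate 2 was 10.1 times the mean of the other WT-labelled libraries, the largest such ratio of the 32, and for Dcn the ratio was 5.21. Their differences of -1.30 (SE 1.03) and -1.56 (SE 0.85) became -0.23 and -0.77 without that library. For Bgn and Lum the values without it were -1.18 and -1.07.

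As a sum, microfibril and elastic-fibre genes had the largest ratio of means of the 5 roles, at 4.68. Without Atg5 WT replicate 2 the ratio was 2.19, below the 2.60 of the contractile and mural genes, so that rank rested on 1 library. Fibrillin 1 (Fbn1; chromosome 2, 125300594 to 125507993), the backbone of microfibrils, had 6.14, 30.8 and 3.42 in the WT-labelled libraries and 3.16, 2.12 and 0.965 in the others. Its mean was 6.47-fold higher in the former, the largest of the 32, and 2.30-fold higher without Atg5 WT replicate 2. The groups did not overlap. Fibulin 2 (Fbln2), which links fibrillin to elastin and basement membranes, had 14.6, 41.2 and 6.29 against 6.59, 3.99 and 1.36, so that Atg5 KO replicate 1 passed Atg5 WT replicate 3 by a small margin. Its difference was -1.91 (SE 0.73), and -1.25 without Atg5 WT replicate 2.

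Lysyl oxidase (Lox), which cross-links collagen and elastin, had FPKM of 4.96, 23.7 and 3.35 against 2.42, 2.00 and 0.944. Loxl1, its relative in elastic-fibre assembly, had 6.74, 21.4 and 4.13 against 3.16, 2.88 and 1.34. The groups were separate for both, and the differences were -1.67 (SE 0.68) and -1.52 (SE 0.57). Microfibril-associated Mfap5 had 8.15, 27.2 and 4.13 against 4.65, 3.89 and 1.49, and Mfap4 had 8.27, 21.8 and 3.67 against 3.76, 3.98 and 1.504. These overlapped, since Atg5 WT replicate 3 lay among the KO-labelled libraries. Fibulin 1 (Fbln1) ranged from 2.14 to 7.69 and from 0.535 to 1.73, without overlap. Over the 7 genes, Atg5 WT replicate 2 was 3.00 to 6.44 times the mean of the other libraries of its label.

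Sparc, a collagen-binding matricellular protein also made by endothelial cells, was the most abundant of the 32 after Igfbp5. Its FPKM (chromosome 11, 55394500 to 55420080) was 165, 385 and 90.7 in the WT-labelled libraries and 58.7, 56.1 and 24.9 in the others. The groups did not overlap, and the lowest of the former was 1.54 times the highest of the latter. The difference was -2.02 (SE 0.60; adjusted p = 0.492 by limma-trend), the largest of the 32 on the log2 scale, and -1.47 without Atg5 WT replicate 2 (adjusted p = 0.601). Periostin (Postn; chromosome 3, 54361109 to 54391034), a matricellular protein of activated fibroblasts, had 52.5, 114 and 28.3 against 18.9, 21.9 and 7.36. Its difference was -1.85 (SE 0.61), again without overlap.

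Pcolce, an enhancer of procollagen processing, had FPKM of 7.62, 19.1 and 5.16 against 3.58, 3.26 and 1.85. Serpinf1, an antiangiogenic serpin, had 17.6, 34.9 and 16.4 against 9.56, 12.9 and 6.91. Both were separate, with differences of -1.42 (SE 0.46) and -1.11 (SE 0.35). Mmp3, the matrix metalloproteinase stromelysin 1, ranged from 3.17 to 11.7 and from 0.894 to 1.98, without overlap. Of its 50-base words, 8.39% occur in other genes, mainly its neighbour in sequence Mmp10, which was itself at an FPKM of at most 0.496.

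The insulin-like growth factor binding proteins stood apart from the other secreted genes, each in its own way. Igfbp4 (chromosome 11, 99041244 to 99054392) was nearly level, with FPKM of 41.5, 43.7 and 52.9 in the WT-labelled libraries and 34.6, 47.6 and 40.5 in the others. The groups overlapped, the range over the 6 libraries was 1.53-fold, and the difference was -0.17 (SE 0.16). Igfbp5 (chromosome 1, 72857932 to 72874884), which the mammary epithelium makes as well as stroma, was the most abundant gene of the 32 and had 627, 1479 and 115 against 454, 144 and 119. Its lowest library was Atg5 WT replicate 3, and Atg5 KO replicate 1 was the next after Atg5 WT replicates 2 and 1. The difference was -1.26 with an SE of 1.02, and -0.44 without Atg5 WT replicate 2.

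**Figure D2:**
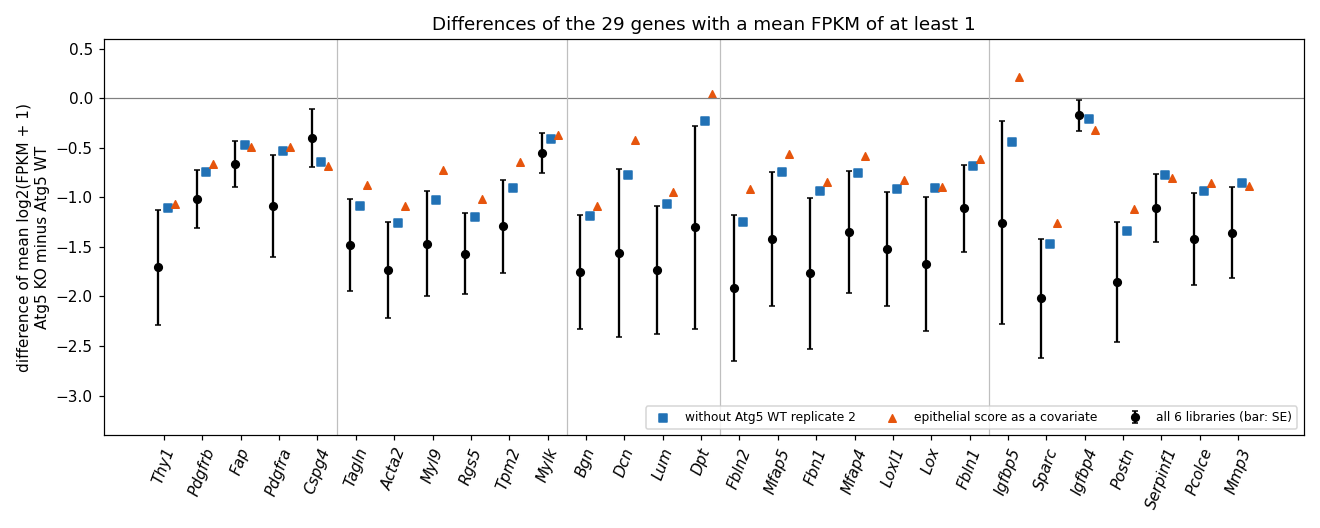
Difference of mean log2(FPKM + 1), KO-labelled minus WT-labelled, for the 29 genes that entered the test; circles with SE bars are all 6 libraries, squares leave out Atg5 WT replicate 2 and triangles have the epithelial score as a covariate. All circles and squares lie below 0, and the triangles of Dpt (0.0486) and Igfbp5 (0.21) lie above it.

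In the sums over each role, Atg5 WT replicate 2 was the highest library and Atg5 KO replicate 3 the lowest, while the order between them varied. Receptors summed to FPKM of 16.5, 40.8 and 14.3 in the WT-labelled libraries and 8.13, 9.38 and 4.44 in the KO-labelled ones. Contractile and mural genes summed to 41.9, 77.8 and 21.4 against 17.2, 12.5 and 6.75, and microfibril genes to 51.8, 174 and 27.1 against 25.3, 20.6 and 8.15. None of these sums overlapped. Proteoglycans, at 81.1, 278 and 46.7 against 46.1, 36.2 and 15.5, were separated only narrowly. The secreted genes, Igfbp5 included, had 916, 2087 and 312 against 582, 287 and 201, with Atg5 KO replicate 1 above Atg5 WT replicate 3. The sum of all 32 genes overlapped in the same way, at 1107, 2656 and 421 against 678, 366 and 236. Without Igfbp5 the other 31 summed to 480, 1178 and 306 against 224, 222 and 117, which did not overlap; Igfbp5 was set aside after its values were seen. All 32 genes took 0.162% of recovered reads in Atg5 WT replicate 3 and 0.340% in Atg5 KO replicate 1. As a share of recovered reads the 31 genes made up 0.141% (95% Wilson interval 0.140% to 0.143%), 0.348% (0.346% to 0.351%) and 0.0930% (0.0917% to 0.0944%) against 0.0667% (0.0656% to 0.0678%), 0.0682% (0.0671% to 0.0694%) and 0.0373% (0.0365% to 0.0382%). The intervals cover counting error only.

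Some of the genes kept a nearly steady proportion to Sparc over the libraries, and others did not. Sparc, chosen as the yardstick after its values were seen, ranged 15.5-fold over the 6 libraries. The ratio of a gene to Sparc in the same library varied by less than 2-fold for 16 of the other 31 genes and by more than 4-fold for 6. The share of all genes within 2-fold was not computed. Periostin, smooth-muscle actin and biglycan, at 1.32-fold, 1.37-fold and 1.36-fold, were among those that varied least. Periostin stood at 31.7%, 29.5% and 31.3% of Sparc in the WT-labelled libraries and at 32.2%, 39.1% and 29.5% in the others. Smooth-muscle actin stood at 5.22%, 4.89% and 5.24% against 5.38%, 3.91% and 5.10%. Biglycan stood at 26.5%, 30.1% and 30.3% against 29.5%, 36.0% and 36.0%.

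The genes whose proportion to Sparc varied most were Igfbp4 (14.3-fold), Cspg4 (14.3-fold), Igfbp5 (6.11-fold), Dpt (4.85-fold), Mylk (4.75-fold) and Fap (4.11-fold). For Igfbp4 and Cspg4 the ratio was lowest in Atg5 WT replicate 2, where they had no peak. For Igfbp5 it was lowest in Atg5 WT replicate 3 and highest in Atg5 KO replicate 1, at 127% and 774% of Sparc. Dpt had its lowest and highest ratios in the same libraries as Igfbp5, at 2.59% and 12.5%. Of the contractile genes, Acta2, Tagln, Rgs5 and Tpm2 varied by 1.37-fold, 1.56-fold, 1.66-fold and 1.72-fold. Myh11, Des and Myl9 varied by 1.93-fold, 2.20-fold and 2.49-fold, and Cnn1 had no such ratio because of its 0.

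**Figure D3:**
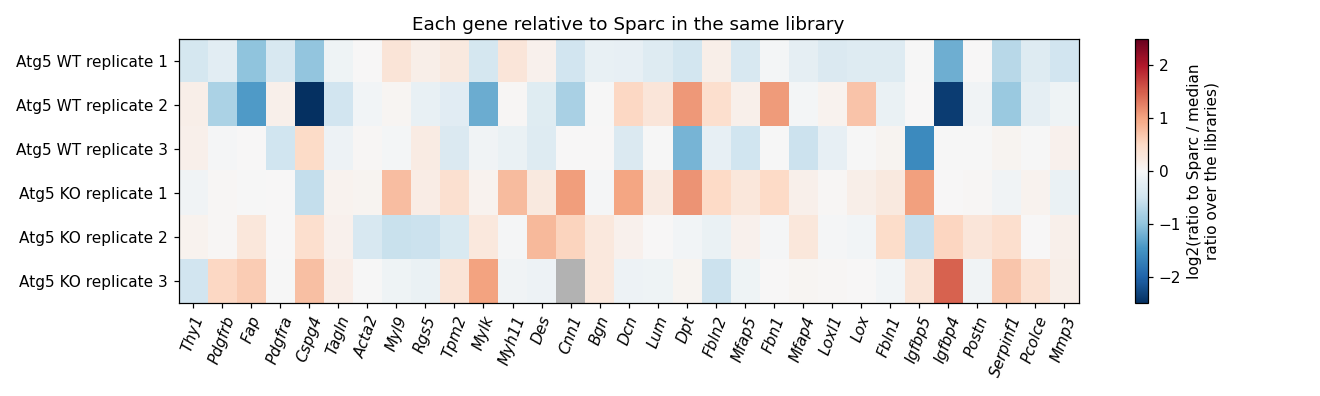
Ratio of each of 31 genes to Sparc in the same library, as log2 of the ratio over its median across libraries; rows are libraries, columns are genes by role, red is above the median, blue below, and grey is Cnn1 at 0 reads. Pale columns such as Postn, Acta2 and Bgn kept their proportion, and Cspg4 and Igfbp4 are dark blue in Atg5 WT replicate 2.

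Other stromal genes, from lists that do not include the 32, differed in how far they followed. For every list the background, over genes at a mean FPKM of 1 or more, was 62.8% with a lower mean and 9.41% separate. As sums, the ratio of means, WT-labelled over KO-labelled, was 4.60 for collagens, 1.72 for further fibroblast genes and 1.93 for further mural genes. Without Atg5 WT replicate 2 the ratios were 2.38, 1.35 and 1.33. Collagens, fibrillar and basement-membrane types among them, were lower and separate for 14 of 14, and 0 passed the test. Col3a1 had 82.8, 393 and 44.6 against 39.6, 26.5 and 11.96. Col1a2 had 64.5, 232 and 39.8 against 28.02, 23.97 and 10.3. Of 22 further fibroblast genes 21 had a lower mean, 8 were separate and 0 passed, with a median of -1.005. Elastin (Eln), which the microfibrils scaffold, had 40.4, 137 and 20.3 against 20.2, 15.05 and 7.58. Mmp14, a membrane metalloproteinase that macrophages also make, had 113, 73.2 and 146 against 97.4, 112 and 110, and its difference was -0.01. Its mean made up 111 of the list's mean sum of 380 in the WT-labelled libraries, and 106 of 220 in the KO-labelled ones. The ratio of 1.72 for the list therefore leans on this nearly level gene. Emilin1 was the gene with a higher mean.

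Of 15 further pericyte and smooth-muscle genes, 15 had a lower mean, 2 were separate and 0 passed, and the median was -0.57. Anpep, an aminopeptidase of pericytes and of other cells, had 60.6, 101 and 31.2 against 57.4, 34.2 and 38.3. Tropomyosin gene Tpm1 had 44.0, 73.1 and 22.5 against 30.8, 18.9 and 16.2. Both overlapped. Kcnj8 and Abcc9, subunits of the pericyte potassium channel, had a mean FPKM over the 6 libraries of 0.574 and 1.61.

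Genes of PDGF and TGFβ signalling and of serum response factor had a median nearer to 0. Of 20, 14 had a lower and 6 a higher mean, 4 were separate and 0 passed, with a median of -0.28. Tgfb1, the ligand that activates fibroblasts and that macrophages make, had 138, 67.6 and 193 against 129, 176 and 150. Its receptor gene Tgfbr2 had 74.6, 57.5 and 99.6 against 76.7, 89.5 and 88.3. Both were lowest in Atg5 WT replicate 2, where the fibroblast genes were highest. Serum response factor (Srf) had 18.7, 22.2 and 17.0 against 16.9, 16.7 and 12.7, and its muscle coactivator Myocd was at most 0.031.

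Markers of several other cell types also had a lower mean in the KO-labelled libraries, though not always in the same order of libraries. In the epithelial and myoepithelial lists Atg5 KO replicate 1 lay above Atg5 WT replicate 3, as it did for 10 of the 32 genes. Epithelial and tumour-cell genes (12 of 12 with a lower mean) summed to 1739, 3028 and 367 in the WT-labelled libraries and 1134, 382 and 200 in the KO-labelled ones, and the groups overlapped. Myoepithelial genes (5 of 5 lower), a further source of contractile transcripts, summed to 59.4, 157 and 18.3 against 22.6, 13.6 and 10.05, with overlap. Endothelial genes (12 of 13 lower) summed to 111, 160 and 60.4 against 54.1, 46.0 and 36.2, without overlap. Mast cell genes (5 of 5 lower) summed to 44.0, 96.9 and 18.8 against 18.7, 13.03 and 5.85, the groups being separated by a narrow margin. Adipocyte genes were near 0, with a sum of at most 0.277 and Lep at 0 in 4 libraries.

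Macrophage genes ran the other way. Of 17, 15 had a higher mean in the KO-labelled libraries and 3 were separate. Over genes at a mean FPKM of 1 or more, 9.2% were separate in that direction. The list summed to 9252, 3849 and 13228 against 11334, 12771 and 14409, and Atg5 WT replicate 3 lay above Atg5 KO replicates 1 and 2. The ratio of means, WT-labelled over KO-labelled, was 0.684, and 0.876 without Atg5 WT replicate 2. The parts that endothelial, mast and macrophage RNA have in the result were not tested. For the epithelium a fit with the epithelial list's mean log2(FPKM + 1) as a covariate gave a median of -0.70 for the 32 genes; 27 of the 29 in the test were negative and 0 passed. The values in that fit were -1.25 for Sparc, -1.12 for Postn, -1.08 for Acta2 and -1.08 for Bgn. Dpt and Igfbp5 turned to 0.0486 and 0.21, and Dcn was -0.43.

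**Figure D4:**
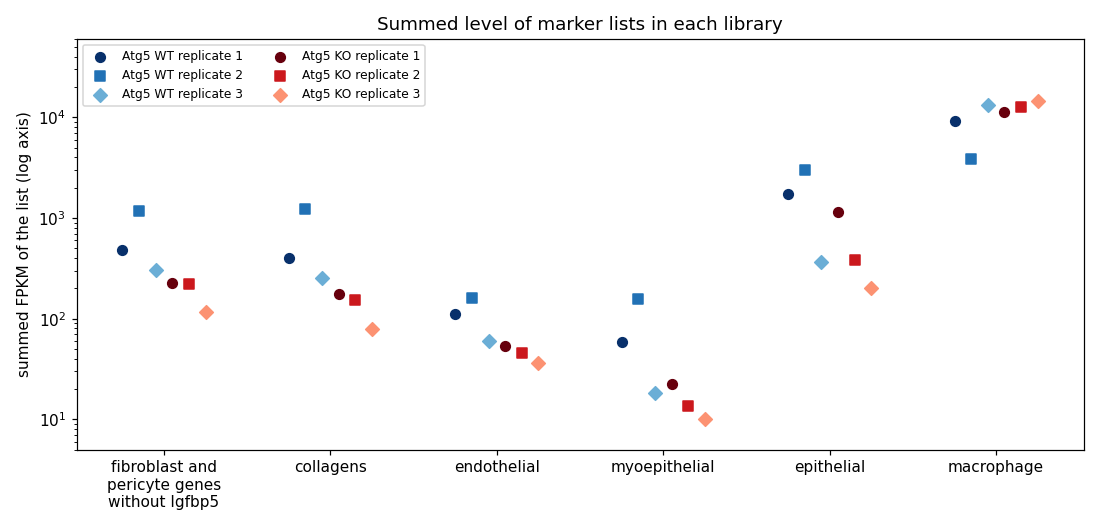
Summed FPKM of 6 lists on a log axis, 1 point per library, with blue for WT-labelled libraries and red for the KO-labelled ones. The fibroblast and pericyte genes without Igfbp5, collagens and endothelial genes are separate between the groups, the epithelial list has Atg5 KO replicate 1 (1134) above Atg5 WT replicate 3 (367), and the macrophage list is lowest in Atg5 WT replicate 2 (3849).

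The ratio of Atg5 WT replicate 3 to Atg5 KO replicate 1 differed widely among the 32 genes. Its median was 1.34, and 10 genes were below 1. Igfbp5, at 0.253, and Dpt, at 0.319, were the lowest, followed by Dcn at 0.605. Cnn1, Myh11, Myl9, Mfap5, Tpm2, Fbln2 and Mfap4 ranged from 0.752 to 0.976. For Sparc, Postn, Bgn and Acta2 the ratio was 1.54, 1.499, 1.58 and 1.51. As sums, the 32 genes stood at 0.621, the 31 without Igfbp5 at 1.37, the collagens at 1.45 and the epithelial list at 0.324. With 1 library on each side, these ratios describe the 2 libraries.

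Sequence shared with other genes bore on few of the values. Beside Tagln and Mmp3, Fbn1 shared 19.7% of its 50-base words, mainly with Gm9913, which was at an FPKM of at most 0.0376. For 18 of the 32 genes no 50-base word occurred in another annotated gene, and 3 were above 5%.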

How the data were processed

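The authors deposited FPKM values of 35275 genes, with 1 column per mouse. Per the submitters' processing notes STAR, CASAVA and the build mm10 were used; the read counter, its strand setting and the annotation were not given in those sources. With the deposited gene lengths, 100% of FPKM values gave whole reads (tolerance 0.01 read).

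Genes averaging an FPKM of 1 or more were fitted as log2(FPKM + 1) in limma 3.58.1 (R 4.3.3) with the mean-variance trend and group as the only term, two-sided, with Benjamini-Hochberg adjustment over all 12332 genes and a threshold of 0.05. Differences understate the change of low genes. The members, roles and lists were chosen with earlier results of these data known, so their direction is not independent support. Genes averaging 5 or more are given library by library, the others by ranges, except Cspg4 and the reads of Myh11, Des and Cnn1; from further lists the 2 most abundant are named, and Emilin1, Kcnj8, Abcc9, Srf and Myocd were named after their values were seen. Medians over the 32 genes use no filter. The fit was tested on simulated data with less spread between libraries than most of the 32 genes have, so its power here is not known from that. The labels do not say whether replicate numbers pair the mice, and the main fit did not pair them. Deviations of same-numbered libraries from their group means correlated at 0.21, -0.38 and 0.59. Atg5 WT replicate 2 correlated at 0.73 with Atg5 KO replicate 1. With 3 mice per group such correlations cannot show whether mice were paired. Shared sequence was counted in GENCODE M21 transcripts on both strands. P-values measure the spread between 3 mice per group.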

Additional observations from a re-analysis of the deposited data

How the results depend on the processing

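Of 15 alternative fits, the 2 filters and the replicate block cannot move a difference. Over the other 12, the 29 tested genes were negative in 346 of 348 values; the exceptions were Dpt (0.0486) and Igfbp5 (0.21) with the epithelial score as a covariate, where the median of the 32 was -0.70. Leaving out 1 library moved that median between -1.90 (without Atg5 WT replicate 3) and -0.82 (without Atg5 WT replicate 2). The count of separate genes then lay between 19 and 28, with 28 without Atg5 WT replicate 3. Such a count cannot fall when a library is left out, because separate groups stay separate. Over all rows with a read the share rose from 9.09% to 12.7% without Atg5 WT replicate 2. For the other omissions this share was not computed, so the 28 has no background to be set against. Over pseudocounts of 0.1 and 0.5, median-ratio scaling, quantile normalization and limma-voom the median ran from -1.67 to -1.26. Quantile normalization moved the median of all tested genes from -0.09 to 0.03. No alternative called any of the 32, with a smallest adjusted p of 0.129 without Atg5 WT replicate 3 (limma-trend). Genes called lower numbered 0 with no filter, with median-ratio scaling, with limma-voom and with the replicate block, and between 0 and 14 when 1 library was left out; those called higher were between 0 and 2. The 14 and 2 came without Atg5 WT replicate 2. With the replicate block, 0 of the 32 were called (smallest adjusted p = 0.287). The cause of these shifts was not tested. Low genes limit the precision: Cnn1 had at most 15 reads.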
